A study of Homo sapiens with 3 samples.

Results

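Lysosomes are acid compartments in which proteins, sugar chains and lipids are taken apart, and the genes described here encode 40 of their parts, chosen by symbol: 8 cathepsins and other proteases, 7 glycosidases, 6 proteins of lipid breakdown, 6 membrane proteins, 2 transcription factors that switch lysosome genes on, and 11 subunits of the proton pump. All 40 were found once each among the 22497 genes with a symbol in the count tables. Of these, 33 of 40 had a mean of at least 10 CPM over the 4 cell populations (CPM is the share of a population's UMIs that fall on a gene, scaled to a fixed total), as did 6767 genes in all, and those are called tested below. The other 7 are given by their levels.

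The cells were CAMA-1, an established estrogen receptor-positive breast cancer line, grown as spheroids plated at 2000 cells and given 1 µM ribociclib, an inhibitor of the cell cycle kinases CDK4 and CDK6, for 11 days; the labels name the treatment of every group as DMSO plus 1 uM ribociclib, so no group without the drug is part of the comparison. Spheroids held sensitive CAMA-1 cells with a Venus label, CAMA-1_ribociclib_resistant cells, a derivative grown out under the drug, with an mCherry label, or both, at 50% each when plated. This gave 3 libraries, 1 per condition, and 4 populations: sensitive monoculture (3329 cells), sensitive coculture (2059), resistant coculture (6292) and resistant monoculture (7557). Each lineage is 1 line, and cells of a library share its handling, so no test across samples was possible and no p-value is given. Intervals (95%) of levels and ratios cover counting error only. Those of medians are order-statistic intervals over the genes. They describe the spread of the genes as if these were independent, and hold neither counting error nor the error of a repeat culture.

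The proton pump, or V-ATPase, has a V1 sector that splits ATP in the cytosol and a V0 sector that carries protons across the membrane, and the low pH it makes is what most lysosomal enzymes need. Lipids are removed by enzymes with helper proteins that lift them out of membranes, and cholesterol leaves through NPC2 and NPC1. The membrane itself is coated by the glycoproteins LAMP1 and LAMP2. TFEB and TFE3 bind a short E-box, CACGTG, in the promoters of many of these genes.

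The E-box was looked up in 300 bases around each start site (250 before, 50 after; RefSeq, GRCh38.p14). Entries were found for 30 of the 40 genes, not for ASAH1, ATP6V0E1, ATP6V1A, ATP6V1B2, ATP6V1C1, ATP6V1H, CTSB, HEXA, LAMP2 or PSAP. The core CACGTG stood in 10 of 30, beside 8.77% of 27305 genes. The longer TCACGTG, searched on both strands and holding the core, stood in 9 of 30 beside 4.49%, and TCACGTGA, which holds both, in 6 of 30 beside 1.18%. The 9 genes with TCACGTG were ATP6V0B, ATP6V0D1, ATP6V1G1, CTSA, CTSD, GAA, LAMP1, MCOLN1 and NEU1. A match is a description of these letters, not of binding. The promoters of 4 of them follow, since these genes are lower in resistant than in sensitive monoculture below (in CPM; by mean UMIs per cell LAMP1 and ATP6V0D1 are inside the limit) and are also among the named genes of a comparison; GAA, which holds the motif and is lower in CPM too, is not among those named for the size of their ratios. MCOLN1 is a named gene with TCACGTG that was not lower (27.3 CPM in sensitive and 31.1 in resistant monoculture), and its promoter is not shown. Nor is that of CD63, which is named, holds the core alone and was not lower (1178 and 1377 CPM). The 4 promoters shown were thus picked for lower genes and say nothing on how the motif goes with level. They are read 5′ to 3′ on the strand of the gene, with the core in capitals: CTSD at chr11:1763878-1764177 (minus strand, core 47 bases before the start site), ATP6V1G1 at chr9:114587519-114587818 (plus strand, 58 before), LAMP1 at chr13:113296989-113297288 (plus strand, 6 cores, from 192 to 1 before) and ATP6V0D1 at chr16:67481108-67481407 (minus strand, 59 before).
CTSD: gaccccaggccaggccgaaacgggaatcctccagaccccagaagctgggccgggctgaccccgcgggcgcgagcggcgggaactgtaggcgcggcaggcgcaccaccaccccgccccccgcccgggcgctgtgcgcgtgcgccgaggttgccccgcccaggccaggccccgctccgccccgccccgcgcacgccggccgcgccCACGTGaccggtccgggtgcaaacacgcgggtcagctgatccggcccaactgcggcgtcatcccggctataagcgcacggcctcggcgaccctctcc
ATP6V1G1: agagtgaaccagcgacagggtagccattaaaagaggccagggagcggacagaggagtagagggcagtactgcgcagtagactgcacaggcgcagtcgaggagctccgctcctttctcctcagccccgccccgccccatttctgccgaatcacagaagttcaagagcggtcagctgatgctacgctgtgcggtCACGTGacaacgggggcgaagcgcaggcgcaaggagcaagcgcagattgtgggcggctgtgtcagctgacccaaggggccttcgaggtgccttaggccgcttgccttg
LAMP1: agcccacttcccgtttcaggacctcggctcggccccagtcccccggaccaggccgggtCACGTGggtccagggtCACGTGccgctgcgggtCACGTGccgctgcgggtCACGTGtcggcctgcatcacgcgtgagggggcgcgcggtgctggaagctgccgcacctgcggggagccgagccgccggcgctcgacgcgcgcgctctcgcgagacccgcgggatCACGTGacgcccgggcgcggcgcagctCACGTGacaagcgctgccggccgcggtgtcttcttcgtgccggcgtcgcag
ATP6V0D1: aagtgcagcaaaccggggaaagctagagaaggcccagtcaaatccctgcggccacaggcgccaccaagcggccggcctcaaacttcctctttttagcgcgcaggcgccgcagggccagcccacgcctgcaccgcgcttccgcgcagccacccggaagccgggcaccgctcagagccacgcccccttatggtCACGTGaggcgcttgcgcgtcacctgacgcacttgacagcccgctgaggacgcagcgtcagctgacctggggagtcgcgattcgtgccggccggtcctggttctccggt

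The libraries differed in ways that the groups carry with them. Phase, called by the authors, put 89.0% of sensitive monoculture cells in G1, against 55.3% of sensitive coculture, 49.7% of resistant coculture and 50.0% of resistant monoculture cells, so comparisons between populations were made in G1 cells (2963, 1138, 3125 and 3781 cells). The phases have no class for arrested cells, so the G1 cells of the populations may still differ in how many are arrested, which was not tested. G1 cells of sensitive monoculture had the fewest UMIs (median 26712, against 28686 to 33368) and the highest mitochondrial percent (median 21.2, against 16.2 to 19.2). Libraries shared 7 to 17 cell barcodes in each pair. No UMI of their own label was found in 1071 cells of sensitive monoculture and 2050 of resistant monoculture, although the study's methods keep cells by a minimum of label UMIs; no annotated cell had a UMI of the other label. Among markers, all 8 luminal epithelial genes looked up (ESR1, GATA3, FOXA1, KRT8, KRT18, KRT19, EPCAM and CDH1) were above 10 CPM in every population. Of 7 markers of leukocytes, macrophages, fibroblasts and endothelium, 6 were matched. Their summed level over cells of all phases was 39.6 CPM in sensitive monoculture and 24.2 in sensitive coculture, against 6.08 in resistant coculture and 3.71 in resistant monoculture. Most of the sensitive cells' sum was COL3A1, a fibrillar collagen, at 35.2, 18.7, 2.12 and 0.181 CPM in that order; PTPRC had 0 to 2 UMIs in a population, and COL1A1 stayed at 2.40 to 3.61 CPM. COL3A1 and the mitochondrial percent thus move with the populations beside every result below, and their part in the results was not tested.

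In G1 cells, the lysosome genes together made up 5910 CPM (5894 to 5927) in sensitive monoculture, 4913 (4891 to 4936) in sensitive coculture; resistant cells had 4677 (4663 to 4691) in coculture and 4760 (4749 to 4772) in monoculture. Sensitive monoculture thus stood above the other populations, which lay close together. A cell of sensitive monoculture in G1 gave a median of 0.577% of its UMIs to these genes, against 0.484%, 0.461% and 0.468% in the other populations in the same order. CD63, a tetraspanin of lysosomes and exosomes, alone held 19.9%, 20.8%, 24.3% and 28.9% of the lysosome UMIs. Without CD63 the sums were 4732, 3891, 3542 and 3384 CPM, so resistant monoculture then had the lowest level. UMIs per G1 cell follow both the RNA of a cell and the depth of its library, which cannot be told apart here. By that count the 40 genes had 165, 159, 139 and 162, so sensitive monoculture and resistant monoculture were then alike.

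**Figure D1:**
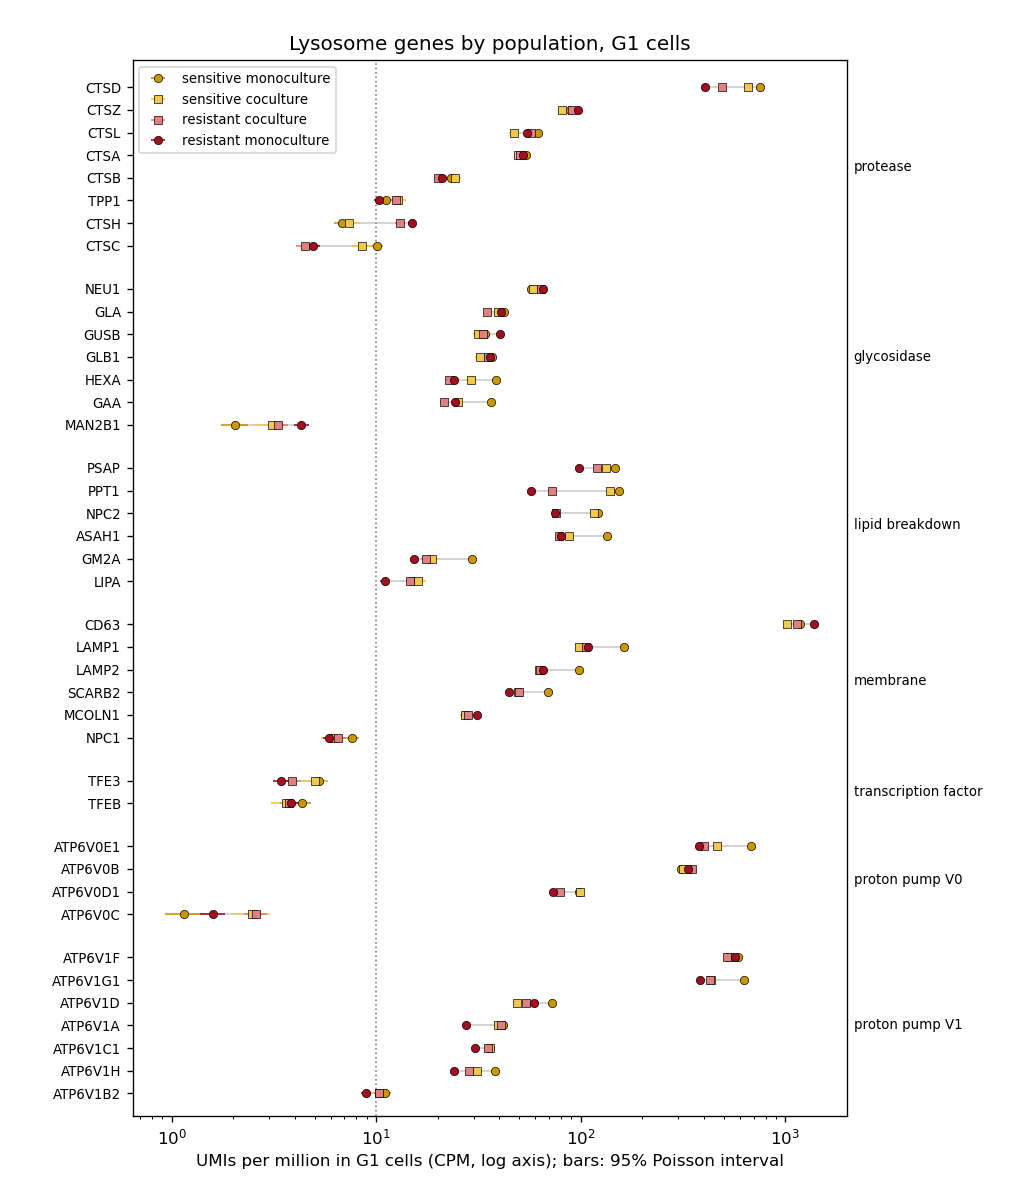
Level of each of the 40 lysosome genes in G1 cells, in CPM (log axis), with 95% Poisson intervals; colours and shapes are the 4 populations, rows are grouped by role, and the dotted line is 10 CPM. Sensitive monoculture lies to the right for LAMP1, LAMP2, ASAH1, GM2A, ATP6V0E1 and ATP6V1G1, PPT1 and NPC2 split by lineage, and CTSH runs the other way.

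Sensitive cells were compared between coculture and monoculture, the question being how resistant neighbours go with the state of sensitive cells under the drug. A gene is counted when its ratio of CPM + 1 was at most 0.8, or at least the inverse of 0.8. By that rule 11 of the 33 tested lysosome genes were lower in coculture (33.3%) and 0 were higher, where 17.9% of all tested genes were lower and 10.2% higher. The median log2 ratio over the 33 was -0.14 (order-statistic interval -0.39 to -0.07), against -0.07 over all tested genes. By mean UMIs per cell, 7 were lower and 1 higher (all tested genes 5.85% and 25.8%), and the median was 0.07 against 0.14 over all tested genes. In CPM, lower genes came from every enzyme class, the membrane and both pump sectors: CTSL, GAA, HEXA, ASAH1, GM2A, LAMP1, LAMP2, SCARB2, ATP6V0E1, ATP6V1D and ATP6V1G1. By mean UMIs per cell CTSL (-0.18), GAA (-0.32), HEXA (-0.18) and SCARB2 (-0.27) were inside the limit, which left no lower protease or glycosidase.

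LAMP1 (chr13:113951554-113977987, GRCh37) showed the largest difference. Its level in G1 cells was 163 CPM in sensitive monoculture and 98.3 in sensitive coculture, against 106 in resistant coculture and 109 in resistant monoculture. Sensitive monoculture was the high population, and sensitive coculture lay just under both resistant ones. The log2 ratio of coculture over monoculture was -0.72 in sensitive cells (ratio of CPM 0.582 to 0.627) and -0.04 in resistant cells (0.949 to 1.00).

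LAMP2, whose splice forms serve the membrane coat and chaperone-mediated autophagy, had 97.7, 62.7, 62.9 and 65.0 CPM in the same order. Again one population stood apart and the others were alike, with a log2 ratio of -0.63 in sensitive cells (0.613 to 0.672). SCARB2, the receptor that carries beta-glucocerebrosidase to the lysosome, followed at 69.5, 49.4, 49.8 and 44.7 CPM (log2 ratio -0.48, ratio 0.674 to 0.750). MCOLN1, the lysosomal calcium channel, did not take part: it had 27.3, 27.2, 28.1 and 31.1 CPM, and a log2 ratio of -0.01 (0.924 to 1.07) in sensitive cells.

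Among proteins of lipid breakdown, GM2A and ASAH1 carried the difference. GM2A (chr5:150591711-150650001), which presents ganglioside GM2 to its hydrolase, had 29.4 CPM in sensitive monoculture and 18.9 in sensitive coculture, against 17.5 in resistant coculture and 15.3 in resistant monoculture. ASAH1, acid ceramidase, had 134, 87.3, 78.5 and 80.1 CPM. Both had a log2 ratio of -0.61 in sensitive cells, with ratios of 0.589 to 0.698 for GM2A and 0.627 to 0.678 for ASAH1. HEXA, the alpha chain of the hexosaminidase that GM2A serves, was also lower (38.3 and 29.1 CPM, log2 ratio -0.39), as was GAA, acid alpha-glucosidase (36.45 and 25.01 CPM, -0.53).

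The pump differed by subunit. ATP6V1G1, a stalk subunit of V1 (chr9:117349986-117361195), had 631, 433, 431 and 385 CPM, with a log2 ratio of -0.54 in sensitive cells (0.674 to 0.699). ATP6V0E1, a small subunit of V0, had 677, 466, 400 and 377 CPM, also at -0.54 (0.676 to 0.700). ATP6V1D, of the central shaft, had 72.6, 48.9, 54.0 and 58.8 CPM (-0.56, ratio 0.638 to 0.710). In contrast ATP6V0B, ATP6V0D1, ATP6V1A and ATP6V1C1 differed by no more than 0.07 on the log2 scale in sensitive cells, so the subunits of one complex did not move as a block.

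**Figure D2:**
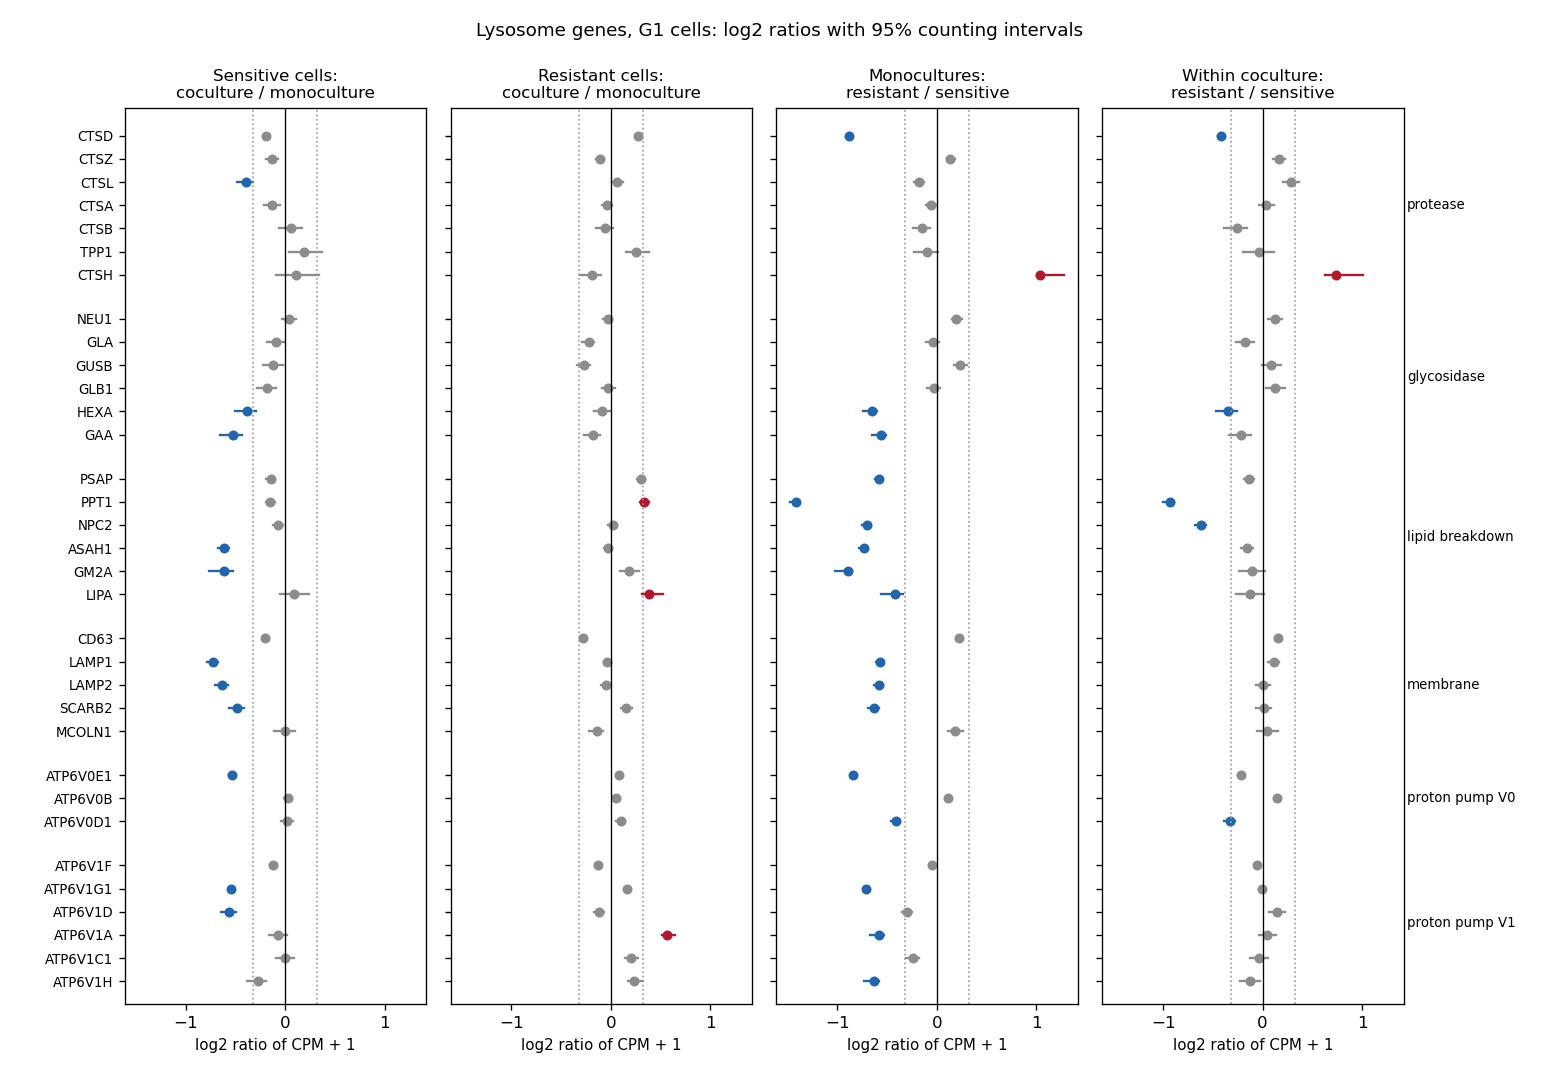
Log2 ratio of CPM + 1 in G1 cells for the 33 tested lysosome genes in 4 comparisons, with 95% counting intervals of the CPM ratio (taken without the added 1); dotted lines mark a ratio of 0.8 and its inverse, blue is lower and red higher past them. Between the monocultures 17 points are blue and 1 is red, in sensitive cells 11 are blue, and within the coculture 5 are blue and 1 is red.

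In resistant cells the same comparison gave little. Coculture was higher for 3 of 33 genes (9.09%, background 10.2%) and lower for 0 (background 2.32%), and the median log2 ratio was -0.03 (-0.06 to 0.15), against 0.02 over all tested genes. TMM scaling gave 2 higher and 2 lower (all tested genes 6.55% and 5.57%), and mean UMIs per cell 1 higher and 7 lower (2.13% and 21.6%), which is the share of all genes. The 3 were ATP6V1A, LIPA and PPT1, of which PPT1 was inside the limit by TMM scaling (0.28) and both LIPA (0.20) and PPT1 (0.14) by mean UMIs per cell. ATP6V1A, the catalytic subunit of V1, had 40.9 CPM in resistant coculture against 27.4 in resistant monoculture, where it was lowest of the populations (log2 ratio 0.56, ratio 1.43 to 1.56). LIPA, lysosomal acid lipase, had 14.7 and 11.0 CPM (0.39, ratio 1.24 to 1.44), and PPT1, a palmitoyl-protein thioesterase, had 72.3 and 57.2 (0.33, ratio 1.22 to 1.31). PSAP, the precursor of the saposins, lay just inside the limit at 120 and 97.7 CPM (0.30), as did CTSD (0.28) and, in the lower direction, CD63 (1135 and 1377 CPM, -0.28).

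The monocultures differed most. Of the 33 genes, 17 (51.5%) were lower in resistant than in sensitive monoculture and 1 (3.03%) was higher, where 27.0% of all tested genes were lower and 13.7% higher. The median log2 ratio was -0.41 (-0.58 to -0.05), against -0.10 over all tested genes. With edgeR's TMM scaling, a trimmed mean that sets the bulk of genes level and moved the median of all genes to 0.01, the lysosome median was -0.30, and 15 genes were lower and 3 higher (all tested genes 19.9% and 19.7%). By mean UMIs per cell the medians were -0.13 and 0.18, with 10 lower and 7 higher (11.1% and 34.1%). The lysosome median lay under that of all tested genes in each case.

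Lipid breakdown was the role group in which every member was lower: all 6 of 6, with log2 ratios from -1.42 to -0.42 and a median of -0.72. PPT1 (chr1:40538382-40562932) was the extreme. It had 154 CPM in sensitive monoculture and 139 in sensitive coculture, against 72.3 in resistant coculture and 57.2 in resistant monoculture. Both sensitive populations lay above both resistant ones, and the log2 ratio of the monocultures was -1.42 (ratio 0.360 to 0.382). NPC2, the soluble cholesterol carrier, had 122, 116, 75.4 and 74.4 CPM, split by lineage in the same way (-0.71, ratio 0.593 to 0.627). By TMM scaling 5 of the 6 were still lower past the limit, without LIPA (-0.32), and by mean UMIs per cell 4 were, without LIPA (-0.15) and PSAP (-0.29).

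CTSD, the main aspartic protease (chr11:1773982-1785803), also split by lineage in its population levels. Its levels were 751 CPM in sensitive monoculture and 659 in sensitive coculture, against 492 in resistant coculture and 406 in resistant monoculture. Each step down the row was larger than its counting error, and the monocultures differed by -0.89 on the log2 scale (ratio 0.534 to 0.546). The split did not hold in every cluster: G1 cells of sensitive monoculture in clusters 8 and 12 had 395 and 410 CPM, and those of resistant coculture in cluster 3 (72 cells) had 719. Of the exon bases of CTSD, 27.3% lie under other gene models on the same strand in GENCODE 44 lifted to GRCh37, and reads that fit 2 genes are not counted. That annotation may not be the one used for counting, and all exon bases were taken, not the 3′ ends alone. Whether CTSD lost reads in this way was not tested. CTSH, an aminopeptidase, was the only tested member higher in resistant monoculture: 6.79, 7.41, 13.02 and 15.02 CPM, a log2 ratio of 1.04 (ratio 2.012 to 2.433). It passed the filter, at a mean of 10.9 CPM, through the resistant cells, so that single higher call says nothing of the members as a group. In CPM CTSA, CTSB, CTSL, CTSZ and TPP1 lay between -0.18 and 0.14. Further calls of higher genes came with the scaling: GUSB by TMM (0.34) and by mean UMIs per cell (0.51), and by the latter also CTSZ (0.42), NEU1 (0.48) and ATP6V0B (0.40).

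ATP6V0E1 (-0.84), ATP6V1G1 (-0.71), ATP6V1H (-0.63), ATP6V1A (-0.58) and ATP6V0D1 (-0.41) were the pump subunits lower between the monocultures. ATP6V0D1 was inside the limit by TMM (-0.30) and by mean UMIs per cell (-0.13), and ATP6V1A by the latter (-0.30). The other tested pump subunits, among them ATP6V0B (0.11) and ATP6V1F (-0.05), were inside the limit in CPM. Among membrane proteins SCARB2 (-0.63), LAMP2 (-0.58) and LAMP1 (-0.57) were lower, while CD63 (0.23) and MCOLN1 (0.18) were positive and inside the limit. Those calls move with the scaling: CD63 was higher past the limit by TMM (0.33), and by mean UMIs per cell CD63 (0.51) and MCOLN1 (0.46) were higher, while LAMP1 (-0.29) and LAMP2 (-0.30) were inside the limit and SCARB2 (-0.35) was lower. Of the 24 tested members with a promoter entry, 9 held TCACGTG, of which 5 were lower and 0 higher with a median log2 ratio of -0.41; of the 15 without it, 5 were lower and 1 higher with a median of -0.10, beside the 27.0% lower and 13.7% higher of all tested genes. By TMM scaling the holders had 4 lower and 0 higher and the rest 4 and 3, where 19.9% of all tested genes were lower and 19.7% higher. By mean UMIs per cell the counts were 2 and 3 against 4 and 4, where 11.1% were lower and 34.1% higher. The one-sided count thus rests on the scaling, and none of these counts was tested. The medians with and without TCACGTG were -0.13 and -0.13 in sensitive cells between cultures (3 of 9 and 4 of 15 lower, beside 17.9% of all tested genes) and 0.04 and 0.01 within the coculture.

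Of 6 tested glycosidases, 2 were lower in resistant than in sensitive monoculture, beside 27.0% of all tested genes. HEXA had 38.3 CPM in sensitive and 24.1 in resistant monoculture (log2 ratio -0.65), and GAA 36.45 and 24.37. By mean UMIs per cell 1 glycosidase was lower (-0.37) and 2 were higher, beside 11.1% and 34.1% of all tested genes. The remaining glycosidases and proteases are given by their levels. GLA, alpha-galactosidase, had 42.00 CPM in sensitive monoculture and 34.7 to 40.8 in the other populations, GLB1, beta-galactosidase, 32.3 to 36.7, GUSB 31.4 to 40.4 and NEU1 57.2 to 65.8. Among proteases, CTSA, which also protects NEU1, had 49.4 to 54.2 CPM, CTSB 20.1 to 24.3, CTSZ 80.9 to 97.5 and TPP1 10.3 to 12.8. CTSL had 62.0 CPM in sensitive monoculture and 47.0 in sensitive coculture (log2 ratio -0.39), with resistant cells in between at 54.8 to 57.3.

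**Figure D3:**
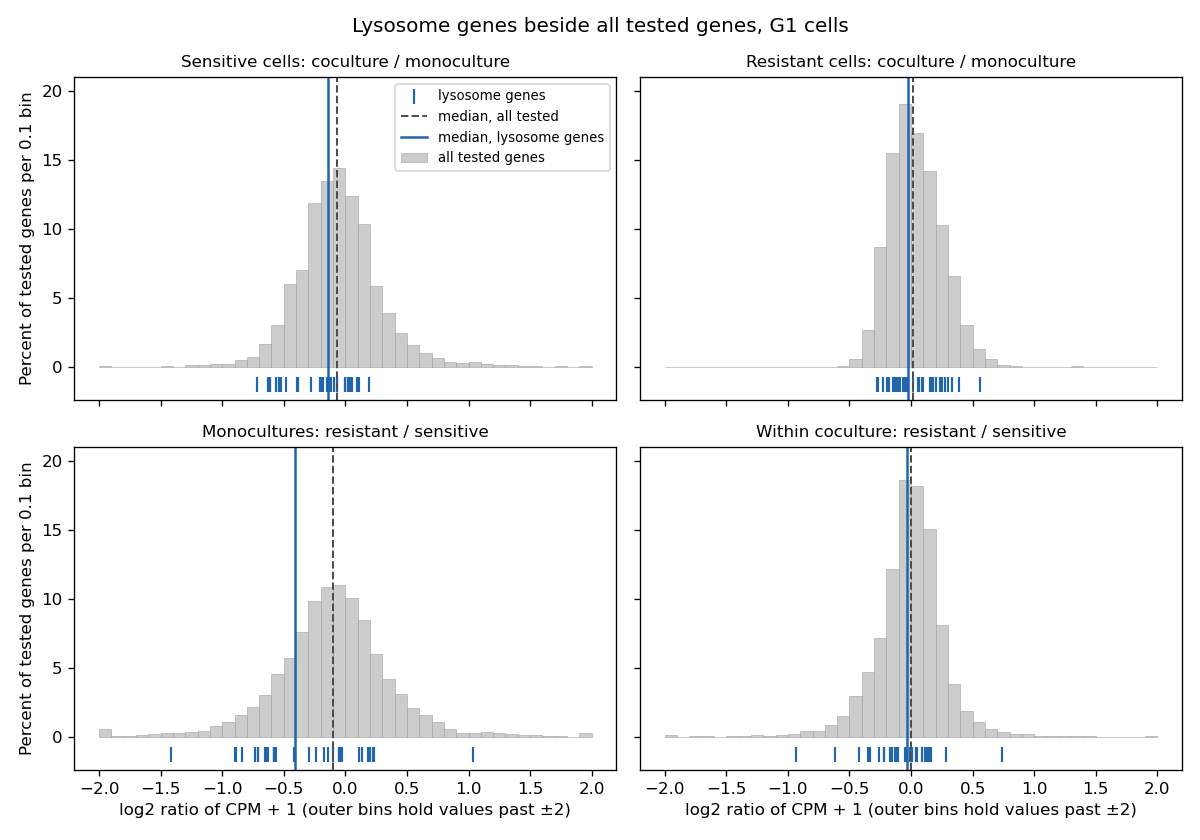
Distribution of log2 ratios of CPM + 1 in G1 cells over the 6767 tested genes (grey bars, percent of genes per bin of 0.1) with the 33 tested lysosome genes as ticks, in 4 comparisons; the dashed line is the median of all tested genes and the blue line that of the lysosome genes. The 2 lines are farthest apart between the monocultures, at -0.10 and -0.41.

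Within the coculture the lineages shared a spheroid and a library. There 5 of 33 genes (15.2%, background 10.7%) were lower in resistant cells and 1 (3.03%, background 7.37%) was higher, with a median log2 ratio of -0.04 (-0.13 to 0.05) against 0.00 over all tested genes. The 5 were PPT1 (-0.93, ratio 0.501 to 0.539), NPC2 (-0.62, 0.624 to 0.674), CTSD (-0.42, 0.734 to 0.758), HEXA (-0.35, 0.722 to 0.838) and ATP6V0D1 (-0.33, 0.762 to 0.825). CTSH was the higher one (0.74, 1.541 to 2.013). It passed the filter through the resistant cells, so this single higher call, too, says nothing of the members as a group.

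Several genes that separated the monocultures had ratios nearer to 1 here. LAMP2 had a log2 ratio of 0.00 within the coculture (0.9554 to 1.053), SCARB2 0.01 (0.953 to 1.06), ATP6V1G1 -0.01 (0.9754 to 1.012) and LAMP1 0.11 (1.04 to 1.12).

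Summed by role, G1 levels of lipid breakdown stepped down from sensitive monoculture (601 CPM) through sensitive coculture (510) and resistant coculture (379) to resistant monoculture (336). Proteases followed the same order at 1007, 890, 740 and 662 CPM, which is mostly CTSD. By UMIs per G1 cell, proteases had 28.1, 28.8, 22.0 and 22.5 in the same order, so the step between cultures was not kept. On that scale, proteins of lipid breakdown had 16.8 and 16.5 in sensitive and 11.3 and 11.4 in resistant cells (monoculture then coculture for the first pair, coculture then monoculture for the second), so that sum differed by lineage and not by culture. Of its 6 members, 2 were still lower in sensitive coculture by mean UMIs per cell (5.85% of all tested genes). V1 subunits had 1416 CPM in sensitive monoculture and 1136, 1117 and 1100 in the others, and V0 subunits 1087, 884, 830 and 788. By UMIs per G1 cell V1 subunits had 39.5, 36.8, 33.2 and 37.4 in the same order, and V0 subunits 30.3, 28.6, 24.7 and 26.8, so resistant monoculture was then not the lowest. Glycosidases stayed between 215 and 247 CPM, and membrane proteins, led by CD63, were highest in resistant monoculture at 1633. That order is CD63: without it, membrane proteins had 365 CPM in sensitive monoculture and 244 to 256 in the other populations.

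**Figure D4:**
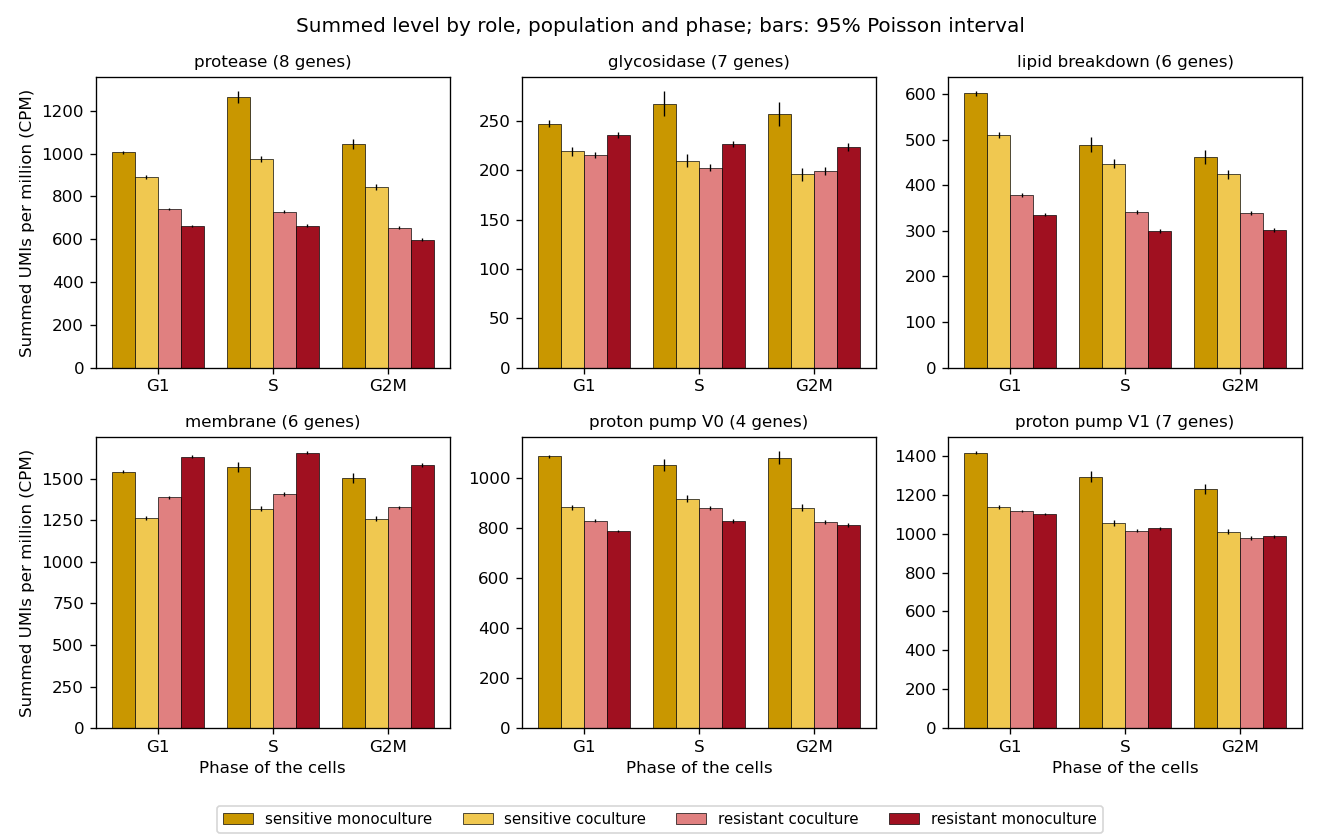
Summed level (CPM, axis from 0) of 6 role groups of lysosome genes by phase (G1, S, G2M) and population, with 95% Poisson intervals. Lipid breakdown and proteases step down from sensitive monoculture to resistant monoculture in each phase. Membrane proteins are highest in resistant monoculture through CD63; without it they are highest in sensitive monoculture in each phase (365, 292 and 300.2 CPM in G1, S and G2M, against 221 to 256 in the others).

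The transcription factors were low. TFEB had 4.32 CPM in sensitive monoculture and 3.64 in sensitive coculture, against 3.76 in resistant coculture and 3.84 in resistant monoculture. The intervals of its ratios between populations all hold 1. TFE3 had 5.27, 5.02, 3.88 and 3.43 CPM, with a ratio of 0.568 to 0.744 between the monocultures and 0.645 to 0.927 within the coculture. The other 5 members were under the filter. CTSC, the protease that activates granule enzymes, had 10.1, 8.52, 4.48 and 4.89 CPM, split by lineage. NPC1, the cholesterol exporter, had 7.63, 6.13, 6.51 and 5.88, and ATP6V1B2, a V1 subunit, 11.1, 10.4, 10.4 and 8.90. MAN2B1, lysosomal alpha-mannosidase, had 2.04, 3.09, 3.32 and 4.31. ATP6V0C, the proton-carrying ring of V0, had 1.15, 2.47, 2.57 and 1.59 CPM; 76.3% of its exon bases lie under other gene models on the same strand, so its level is uncertain, as is that of MAN2B1, with 21.2%. In all, 9 members share exon bases with another gene model.

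Cycling cells (S and G2M) were set against G1 cells of the same population, which compares cells of 1 library. In sensitive monoculture, where the cycling cells were few (176 in S and 190 in G2M), 7 genes were lower in cycling cells and 3 higher (21.2% and 9.09%; background 13.4% and 19.9%). In sensitive coculture 3 were lower and 1 higher (background 5.98% and 14.0%), in resistant coculture 3 and 0 (4.39% and 13.6%), and in resistant monoculture 2 and 2 (3.46% and 14.4%). By mean UMIs per cell the higher counts were 16, 3, 2 and 2 in that order, where 63.6%, 34.1%, 31.3% and 28.8% of all tested genes were higher, and the lower counts were 1, 1, 0 and 0, where 1.92%, 1.63%, 1.21% and 1.27% were lower. Median log2 ratios were -0.12, -0.07, -0.12 and -0.09, against 0.04 to 0.06 over all tested genes; by mean UMIs per cell, where cycling cells hold more of most RNAs, the lysosome medians turn positive (0.2784, 0.1128, 0.0529 and 0.0508) and stay under those of all genes (0.43, 0.23, 0.22 and 0.20).

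GM2A had ratios of -0.85 in sensitive monoculture and -0.53 in sensitive coculture, against -0.38 in resistant coculture and -0.30 in resistant monoculture. It passed the limit in all but resistant monoculture. ATP6V1G1 followed at -0.46, -0.32, -0.35 and -0.35, past the limit in all but sensitive coculture. LAMP2 (-0.45) and LAMP1 (-0.34) passed the limit in sensitive monoculture alone and lay between -0.25 and -0.14 in the other populations. Opposite to these, GUSB, beta-glucuronidase, had positive ratios of 0.58, 0.36, 0.28 and 0.35, past the limit in all but resistant coculture, and ATP6V0B 0.41, 0.30, 0.29 and 0.33, past it in both monocultures. NEU1, lysosomal sialidase, was lower in 3 populations (-0.39, -0.33 and -0.37) but not in sensitive monoculture (0.07). By mean UMIs per cell the lower calls ended for all of these except GM2A in sensitive monoculture (-0.46) and sensitive coculture (-0.35), with LAMP1 at 0.06 and LAMP2 at -0.05 in sensitive monoculture, while GUSB (0.46 to 0.97) and ATP6V0B (0.47 to 0.81) were higher in every population.

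**Figure D5:**
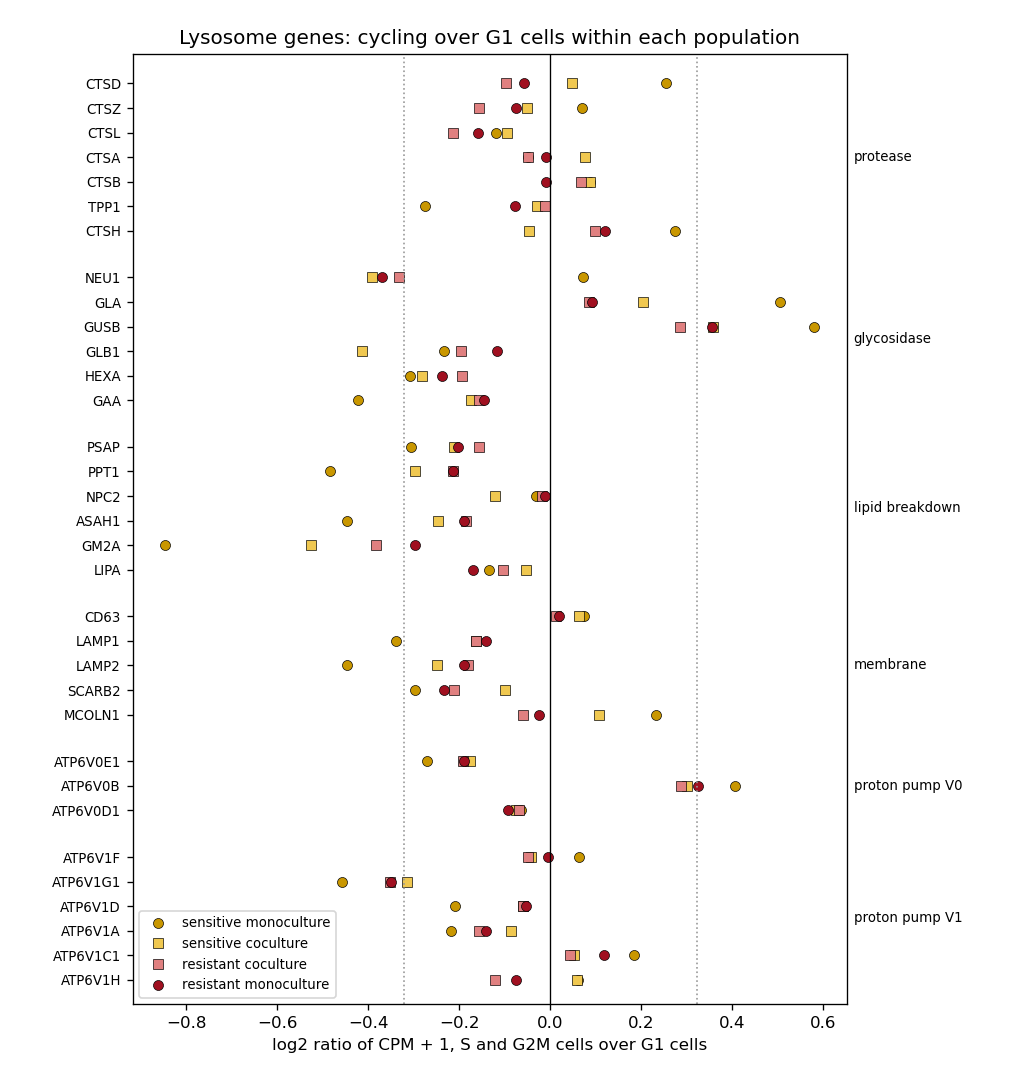
Log2 ratio of CPM + 1 of S and G2M cells over G1 cells of the same population for the 33 tested lysosome genes; colours and shapes are the 4 populations and dotted lines mark a ratio of 0.8 and its inverse. GM2A lies farthest to the left (-0.85 in sensitive monoculture) and GUSB farthest to the right (0.58).

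Cells of one population also differed among the authors' clusters, which were drawn from the most variable genes of the same data, so these values describe and test nothing. In sensitive monoculture, CTSD in G1 cells had 872 CPM in cluster 4 (1857 cells) and 395 in cluster 8 (679 cells). PPT1 had 146 to 156 CPM in those clusters and 295 in cluster 12 (155 cells), where CTSD was at 410. A like pairing of lower CTSD and higher PPT1 than in cluster 0 was seen in cluster 6 of both resistant populations: 299 and 107 CPM in coculture, against 522 and 68.6 in cluster 0, and 244 and 93.0 CPM in monoculture, against 431 and 55.7. High PPT1 was not particular to cluster 6: resistant coculture cells of cluster 3 (72 cells) had 115 CPM of it, with CTSD at 719. Sensitive cells of cluster 3 had 134 CPM of LAMP1 in monoculture (227 cells) and 93.5 in coculture (868 cells), and in cluster 4 they had 167 and 116 (81 coculture cells). Other genes read within cluster 4 differed by unlike amounts. CTSD had 872 CPM in monoculture and 685 in coculture, CD63 1185 and 926, and LAMP2 101 and 85.2. ATP6V1G1 had 637 and 580.5, GM2A 29.8 and 26.6, ATP6V0E1 720 and 705, and PPT1 146.5 and 154.3. Cluster 4 held most sensitive G1 cells in monoculture and cluster 3 most in coculture, so the comparison of sensitive cells runs across that shift.

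Further lysosome genes, taken as whole lists, were read in G1 cells by the same rule, and their counts stand beside the shares of all tested genes already given for each comparison: 17.9% lower and 10.2% higher in sensitive cells, 27.0% and 13.7% between the monocultures, 2.32% and 10.2% in resistant cells, and 10.7% and 7.37% within the coculture. The lists are given in CPM alone, although calls of the members above moved with the scaling. Of 26 other hydrolases 13 were tested. In sensitive cells 3 were lower and 1 higher in coculture, between the monocultures 2 were lower and 2 higher, and in the other G1 comparisons 0 passed the limit. These counts lie near or under the shares of all tested genes. IDS, iduronate-2-sulfatase, was lowest in both, with 26.8 CPM in sensitive monoculture, 15.4 in sensitive coculture (-0.76) and 12.9 in resistant monoculture (-1.0015). CTSF came next in sensitive cells (-0.51). CTSV was highest in both (0.49 and 0.72), then GGH (0.16 and 0.41). In sensitive monoculture CTSV had 7.71 CPM, under the level of the filter, and 11.2 to 13.4 in the other populations. It passed through those, so its higher calls say nothing of the list as a group.

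Of 18 other membrane proteins 17 were matched and 7 tested. Of those, 3 were lower in coculture in sensitive cells, 4 were lower in resistant than in sensitive monoculture, 2 were lower in resistant cells within the coculture, 0 passed in resistant cells between cultures, and 0 were higher in these 4 comparisons. LAPTM4A had 230 CPM in sensitive monoculture, 164 in sensitive coculture (-0.48) and 102 in resistant monoculture (-1.17), and LAPTM4B 239, 238 (-0.00) and 112 (-1.08). CLN3 was lowest in sensitive cells (-0.56) and TMEM192 highest (0.19); between the monocultures TMEM192 (-0.04) and ABCA2 (0.03) were the highest.

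Of 12 other pump genes 6 were tested. In sensitive cells 2 were lower and 1 higher in coculture, and between the monocultures 1 was lower and 1 higher, so the lower share between the monocultures was under that of all tested genes. ATP6V1B1, the B subunit known from acid-secreting epithelia, was the higher one in both: 8.52 CPM in sensitive monoculture, 18.3 in sensitive coculture (1.02, ratio 1.93 to 2.39) and 24.5 in resistant monoculture (1.42, ratio 2.64 to 3.12). Its mean passed the filter through the populations other than sensitive monoculture, so these higher calls say nothing of the list as a group. ATP6AP2 (-0.41) and ATP6V0E2 (-0.35) were lowest in sensitive cells, and ATP6V1E1 (-0.67) and ATP6AP2 (-0.26) between the monocultures; ATP6V0A1 was the second highest, at 0.20 and -0.17. In each of the other G1 comparisons 1 was lower and 0 were higher.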

How the data were processed

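Single-cell 3′ libraries (10X Genomics, v3 chemistry) of 3 spheroid cultures were analysed. The authors processed the reads with Cell Ranger 3.0.2 on GRCh37, per the labels, and deposited their counts, UMIs of each gene in each barcode, with no normalization applied. Their annotation gives each cell's total count, mitochondrial percent, phase, cluster and population, which they made in Seurat after limits on genes, UMIs and mitochondrial percent and after removing predicted doublets; a minimum of 2 label UMIs per cell is also stated, which the annotated cells do not all meet, and they were used as deposited; no doublet caller was run here. The deposited percent values ran from 0.626 to 30.0. A further 11 annotation columns were not used. The libraries held 8643, 20227 and 11502 barcodes, of which 3329, 8351 and 7557 were annotated; rows without a symbol held 0.572% to 0.614% of their UMIs and were left out, as were the label transgenes. A 3′ library counts each molecule once, so CPM was not divided by gene length.

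UMIs of 19237 cells were summed per population and phase, which gave 36865498 to 128686888 UMIs in G1. CPM, log2 ratios of CPM + 1, exact Poisson intervals of levels and exact (Clopper-Pearson, conditional on the sum) intervals of ratios were computed with scipy 1.17.1 and TMM factors with edgeR 4.0.16 (R 4.3.3). Intervals of medians are binomial order-statistic intervals over genes. Other settings changed the pseudocount, scaling, filter, fold, cells and phases. The MAST and Wilcoxon tests over cells were not used, since cells are not replicates. The ratio functions were tested on simulated counts. The genes and lists were chosen with earlier results of these data known. Named genes are, per comparison, the 6 with the largest absolute log2 ratio, plus TFEB, TFE3, MCOLN1, LAMP1, CTSD and ATP6V0C, and the 2 highest and 2 lowest of each further list in sensitive cells and between the monocultures; others are named for their role or as members past the limit. One gene that this rule names is not reported here.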

Additional observations from a re-analysis of the deposited data

Results flagged for a closer look

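For 4 lysosome genes, coculture and monoculture differed in opposite directions in the lineages (G1 cells, intervals of both ratios clear of 1, and at least 1.5-fold apart). For GM2A the log2 ratio of coculture over monoculture was -0.61 in sensitive and 0.18 in resistant cells, a difference of 0.79. For ATP6V1G1 the ratios were -0.54 and 0.16, a difference of 0.70. For SCARB2 they were -0.48 and 0.15, a difference of 0.64, and for ATP6V0E1 -0.54 and 0.09, a difference of 0.62. With 1 library per condition the difference was not tested in any of them, and both ratios share the coculture library. How many of all tested genes meet the same rule is not given, so the count of 4 has no background here. The opposite directions rest on the scaling. By TMM scaling they were kept, but the difference was under 1.5-fold for SCARB2 (0.53) and ATP6V0E1 (0.52), with resistant ratios of 0.12 for GM2A, 0.11 for ATP6V1G1, 0.10 for SCARB2 and 0.03 for ATP6V0E1. By mean UMIs per cell the resistant ratios turned to -0.0066, -0.0324, -0.0385 and -0.1095 in that order, so the resistant ratios were then at or under 0 (for GM2A close to 0), with sensitive ratios of -0.41, -0.33, -0.27 and -0.32, and the difference was under 1.5-fold for each of the 4 (0.21 to 0.40).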

How the results depend on the processing

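Scaling by mean UMIs per cell, which follows both the RNA content of a cell and the depth of its library, moved the most values. In sensitive cells between cultures it gave 1 higher and 7 lower members and turned the median log2 ratio from -0.14 to 0.0685 (all tested genes 0.14). In resistant cells it gave 1 higher, 7 lower and a median of -0.22 (all -0.17), between the monocultures 7 and 10, and within the coculture 8 lower (18.8% of all tested genes) with a median of -0.15 (all -0.12). For cycling over G1 cells it gave 16 higher and 1 lower with a median of 0.28 in sensitive monoculture, 3 and 1 with 0.11 in sensitive coculture, 2 and 0 with 0.0529 in resistant coculture, and 0 lower with 0.0508 in resistant monoculture; all of these cycling medians turned from negative. TMM scaling gave 2 lower (5.57% of all tested genes) and a median of -0.0821 in resistant cells, and 3 higher between the monocultures (19.7%). For cycling cells of resistant monoculture it gave 0 higher (12.1%). Without mitochondrial genes, cycling cells had 12 lower members in sensitive monoculture (17.4% of all tested genes), 6 lower and 0 higher in sensitive coculture (8.50% and 11.8%), and 0 higher in resistant monoculture (12.1%). A pseudocount of 10 CPM gave 1 higher in resistant cells (4.48%) and 3 lower within the coculture (6.28%). A filter at 1 CPM gave 2 higher of 40 in sensitive cells (10.9%) and 2 between the monocultures (13.6%); one at 50 CPM, which 19 members passed, gave 1 higher in resistant cells (9.32%), 0 higher and 11 lower between the monocultures (18.5% and 19.0%), and 0 higher within the coculture (6.54%). A fold of 1.5 left 4 lower in sensitive cells (4.29%), 0 higher in resistant cells (1.05%), 10 lower between the monocultures (11.6%) and 2 lower within the coculture (2.93%). For cycling cells it left 0 higher and 1 lower in sensitive monoculture (8.26% and 3.65%). It left 0 higher and 0 lower in sensitive coculture (5.67% and 1.03%) and in resistant monoculture (5.51% and 0.709%), and 0 lower in resistant coculture (0.768%). With cells of all phases 2 members were higher between the monocultures (16.9%). The cause of these shifts was not tested.

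The summed level in G1 cells, given first for sensitive cells (monoculture, then coculture) and then for resistant cells (coculture, then monoculture), was 7456, 6058, 5634 and 5764 CPM without mitochondrial genes, 5928, 4878, 4617 and 4684 in cells with at least 2 transgene UMIs, and 6026, 5016, 4698 and 4800 in cells under 20 percent mitochondrial. With all phases it was 5890, 4849, 4562 and 4691, and by the mean of per-cell CPM 5841 in sensitive monoculture. Sensitive monoculture stayed highest in each of these. Of the other 126 values of this kind, all stayed within 1.5 times the count reported or within the interval of the median or sum. For the 6 genes with the largest ratios in each G1 comparison, run after the data were seen, 0 ratios past the limit changed sign, 106 stayed within the counting interval and 86 left it. The 0 says little, since the genes were picked for large ratios and a change of pseudocount cannot turn a sign. No paired analysis was possible because each condition has 1 library. Depth limits the members under 10 CPM, whose ratios have the widest intervals.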

Other observations

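Genes that work at the lysosome or feed it gave the following values in G1 cells, by the same rule and in CPM alone. Calls of the members above moved with the scaling, and whether these calls hold by mean UMIs per cell is not given. For comparison, of all tested genes 17.9% were lower and 10.2% higher in sensitive cells, 27.0% and 13.7% between the monocultures, 2.32% and 10.2% in resistant cells, and 10.7% and 7.37% within the coculture. Of 12 tested genes of mTORC1 and its anchor on the lysosome (18 listed), 4 were lower in coculture in sensitive cells and 6 were lower in resistant than in sensitive monoculture, with 0 higher in either; 2 were higher in coculture in resistant cells, and 3 were lower in resistant cells within the coculture. RRAGA and RRAGC, of the Rag GTPases that dock mTORC1 when amino acids are present, were lowest between the monocultures: RRAGA had 65.4 CPM in sensitive monoculture and 31.8 in resistant monoculture (log2 ratio -1.02), and RRAGC 35.5 and 18.1 (-0.94). In sensitive cells RHEB (-0.44) and RRAGA (-0.40) were lowest and MLST8 (0.17) and LAMTOR4 (0.13) highest, and between the monocultures MLST8 (0.24) and LAMTOR5 (-0.04) were highest.

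Of 15 tested autophagy genes (20 listed), 3 were lower in coculture in sensitive cells and 0 higher; 6 were lower and 2 higher in resistant than in sensitive monoculture. The lower count in sensitive cells and the higher count between the monocultures are near the shares of all tested genes. In resistant cells 3 were higher and 1 lower in coculture, and within the coculture 1 was higher and 0 lower. WIPI1, which marks forming autophagosomes, ran in opposite directions: 21.6 CPM in sensitive monoculture, 15.4 in sensitive coculture (-0.47) and 36.1 in resistant monoculture (0.72). GABARAPL2 (-0.42) was next lowest in sensitive cells, with ATG12 (0.30) and ATG9A (0.27) highest. Between the monocultures GABARAP (-0.58) and BECN1 (-0.49) were lowest, and ATG9A (0.35) was second highest. Of 9 tested genes of enzyme delivery (11 listed), 1 was lower in sensitive cells, 3 between the monocultures, 1 within the coculture and 0 in resistant cells, with 0 higher in all of them, and these lower counts too lie near the shares of all tested genes or under them. GNPTAB, which makes the mannose 6-phosphate tag of lysosomal enzymes, was lowest in both, with 38.3 CPM in sensitive monoculture, 28.6 in sensitive coculture (-0.41) and 20.6 in resistant monoculture (-0.86). AP1S1 (-0.29) and GNPTG (-0.37) came next in sensitive cells and between the monocultures, while SORT1 (0.23) and GGA2 (0.03), and GGA2 (0.03) and AP1S1 (0.01), were the highest.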
